A study of Mus musculus with 516 samples.

Results

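Fos, Junb, Egr1, Dusp1 and Btg2 were followed as immediate early genes in 516 single cells from dorsal root ganglia of mice, which house the cell bodies of sensory neurons. The 5 genes were taken by symbol from a count table of 11251 genes, and all 5 are in it. The cells came from the inbred strain C57BL/6 or from CAST/Ei, and no transgene, allele, age or sex is given in the labels. Naive cells were captured on a microfluidic chip after the ganglia had been dissociated, and cultured cells, which the labels call injured, had first spent 48 h in a dish, with ara-C, which stops dividing cells, added at 24 h, and were then detached with trypsin. Of the cells 243 were C57BL/6 and 273 CAST/Ei, and 306 were naive and 210 cultured, 99 of the latter from CAST/Ei. All cells, naive and cultured, had thus been through dissociation, a 35 µm mesh and a Percoll step at density 1.04, and tissue that was never dissociated was not analysed here. Since no label ties a cell to an animal, a dish or a chip, each of the 4 groups counts as 1 sample and nothing below carries a p-value.

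Immediate early genes are switched on within minutes of a stimulus, without new protein synthesis, by factors that already wait at their promoters, chiefly CREB and the serum response factor with its ETS partners, which MAP kinases and calcium activate. Their transcripts are short lived. Fos and Junb encode subunits of the AP-1 transcription factor, and Egr1 encodes a zinc finger transcription factor. Dusp1 encodes a phosphatase that switches MAP kinases off, and Btg2 encodes an antiproliferative protein that ties the CCR4-NOT deadenylase to messenger RNA. In sensory neurons such genes respond to activity and to injury, and enzymatic dissociation of a tissue is itself known to switch them on.

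The promoters of Fos, Junb, Dusp1 and Btg2 show what these genes have in common upstream of the start site. The windows below hold the 250 bases before each start, from RefSeq on build GRCm38.p6, with every TGACG, the core of the CREB binding site, in capitals on either strand. For Egr1 no sequence is shown. Fos lies at chr12:85473640-85473889 on the plus strand, Junb at chr8:84978749-84978998, Dusp1 at chr17:26508473-26508722 and Btg2 at chr1:134079156-134079405, all 3 of these on the minus strand and printed 5′ to 3′ toward the gene.
Fos: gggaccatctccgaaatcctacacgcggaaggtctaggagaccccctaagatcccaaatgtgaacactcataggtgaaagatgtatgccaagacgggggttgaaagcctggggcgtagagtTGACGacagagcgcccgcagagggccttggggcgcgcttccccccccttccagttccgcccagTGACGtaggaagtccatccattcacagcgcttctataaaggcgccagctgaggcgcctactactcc
Junb: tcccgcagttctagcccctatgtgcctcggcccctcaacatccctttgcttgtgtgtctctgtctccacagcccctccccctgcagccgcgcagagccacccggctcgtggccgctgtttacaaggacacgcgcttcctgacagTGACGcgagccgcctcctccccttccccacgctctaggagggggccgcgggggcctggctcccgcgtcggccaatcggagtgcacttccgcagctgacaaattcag
Dusp1: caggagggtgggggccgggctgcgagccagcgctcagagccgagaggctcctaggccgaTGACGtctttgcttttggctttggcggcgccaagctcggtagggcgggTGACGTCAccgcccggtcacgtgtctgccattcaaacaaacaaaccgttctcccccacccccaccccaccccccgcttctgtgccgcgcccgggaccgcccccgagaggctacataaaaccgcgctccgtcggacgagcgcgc
Btg2: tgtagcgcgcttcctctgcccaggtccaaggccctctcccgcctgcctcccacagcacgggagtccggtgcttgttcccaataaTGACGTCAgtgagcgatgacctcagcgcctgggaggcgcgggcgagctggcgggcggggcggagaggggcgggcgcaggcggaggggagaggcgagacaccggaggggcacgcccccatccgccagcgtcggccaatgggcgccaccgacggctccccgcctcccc
All 4 windows hold TGACG on at least 1 strand, against 17.8% of the 32851 promoter windows of the same length in the RefSeq table. Among the windows of 48 genes of a longer immediate early list, described below, 34 of 66 hold it (51.5%). The full palindrome TGACGTCA, which contains TGACG on both strands, stands in the windows of Btg2 and Dusp1 and in 1.55% of all windows. Dusp1 has a further TGACG 191 bases before its start, Junb has 1, and Fos has 2, the nearer at 66 bases, with TATAAA, searched on the printed strand only and held by 7.59% of windows, at 33 bases. None of the 4 windows holds TGANTCA (the AP-1 site, in 6.75% of all windows), GCGTGGGCG (the EGR site, 0.536%) or a CArG box, the site of the serum response factor (1.47%), searched on both strands. Sites further than 250 bases before a start were not searched, so a missing match holds for the window alone. A match describes letters, and no binding was measured.

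The table holds 496696577 reads, 13932 to 2978345 per cell with a median of 839147. Clustering on all genes gave 15 clusters, and those with the neuron list highest and no excess of other markers among their leading genes were called neuron-like: 272 naive cells of both strains, 11 cultured C57BL/6 cells and 32 cultured CAST/Ei cells. All 23 neuron markers were read in each of these sets, with a summed level of 16632 to 21401 CPM (read counts scaled to a common total per cell or set of cells). All 34 other naive cells (16 C57BL/6 and 18 CAST/Ei) formed cluster 5. By mean log2(CPM + 1) its neuron list was highest too, at 5.66 against 4.89 for the glial list. It stayed unnamed because its leading genes held the glial marker Apoe and no neuron marker. With each cell classed by its own markers, 15 naive C57BL/6 and 11 naive CAST/Ei cells fell outside the neuron-like class. In cluster 5 neuron markers summed to 6266 CPM in C57BL/6 and 6334 in CAST/Ei, and satellite and Schwann glia markers to 12920 and 21541. Its fibroblast markers summed to 12055 and 2220, and its endothelial and mural markers to 2875 and 2446. In the naive neuron-like cells those 3 lists summed to 3461, 383 and 1373 CPM in C57BL/6 and to 2695, 471 and 350 in CAST/Ei. Clustering without the immediate early list left all 306 naive cells in the same class. The list was left out only when cells were grouped, and the clusters were still classed with all genes. Zfp36, Cyr61 and Nfkbia of that list are among the leading genes of cluster 5. Whether its class rests on such genes was not tested.

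Freshly captured neuron-like cells carried all 5 transcripts, Fos in nearly every cell and Junb in the fewest. Fos was read in every naive C57BL/6 neuron-like cell and in all but 1 from CAST/Ei. Its level ran from 1.52 CPM over a median of 316 to 2519 CPM in C57BL/6, and from 0 over 299.8 to 2508 CPM in CAST/Ei. Single cells of either strain thus reached from a few reads or none to high levels, while the medians of the strains lay close together. Egr1 ran from 0 to 1966 CPM with a median of 149.9 in C57BL/6, and from 0 to 1959 CPM with a median of 154.6 in CAST/Ei. Junb, the other AP-1 subunit, ran from 0 to 242 CPM (median 8.90) in C57BL/6 and from 0 to 319 CPM (median 12.99) in CAST/Ei, and 20 and 16 cells had no read of it. The phosphatase gene Dusp1 had medians of 39.25 and 37.4 CPM and highest cells at 477 and 625 CPM. Btg2 had medians of 96.9 and 56.01 CPM and highest cells at 1401 and 2636 CPM. Much of each transcript lay in few cells: the highest 10% of C57BL/6 cells held 42.7% of the Fos reads and 68.9% of the Junb reads.

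**Figure D1:**
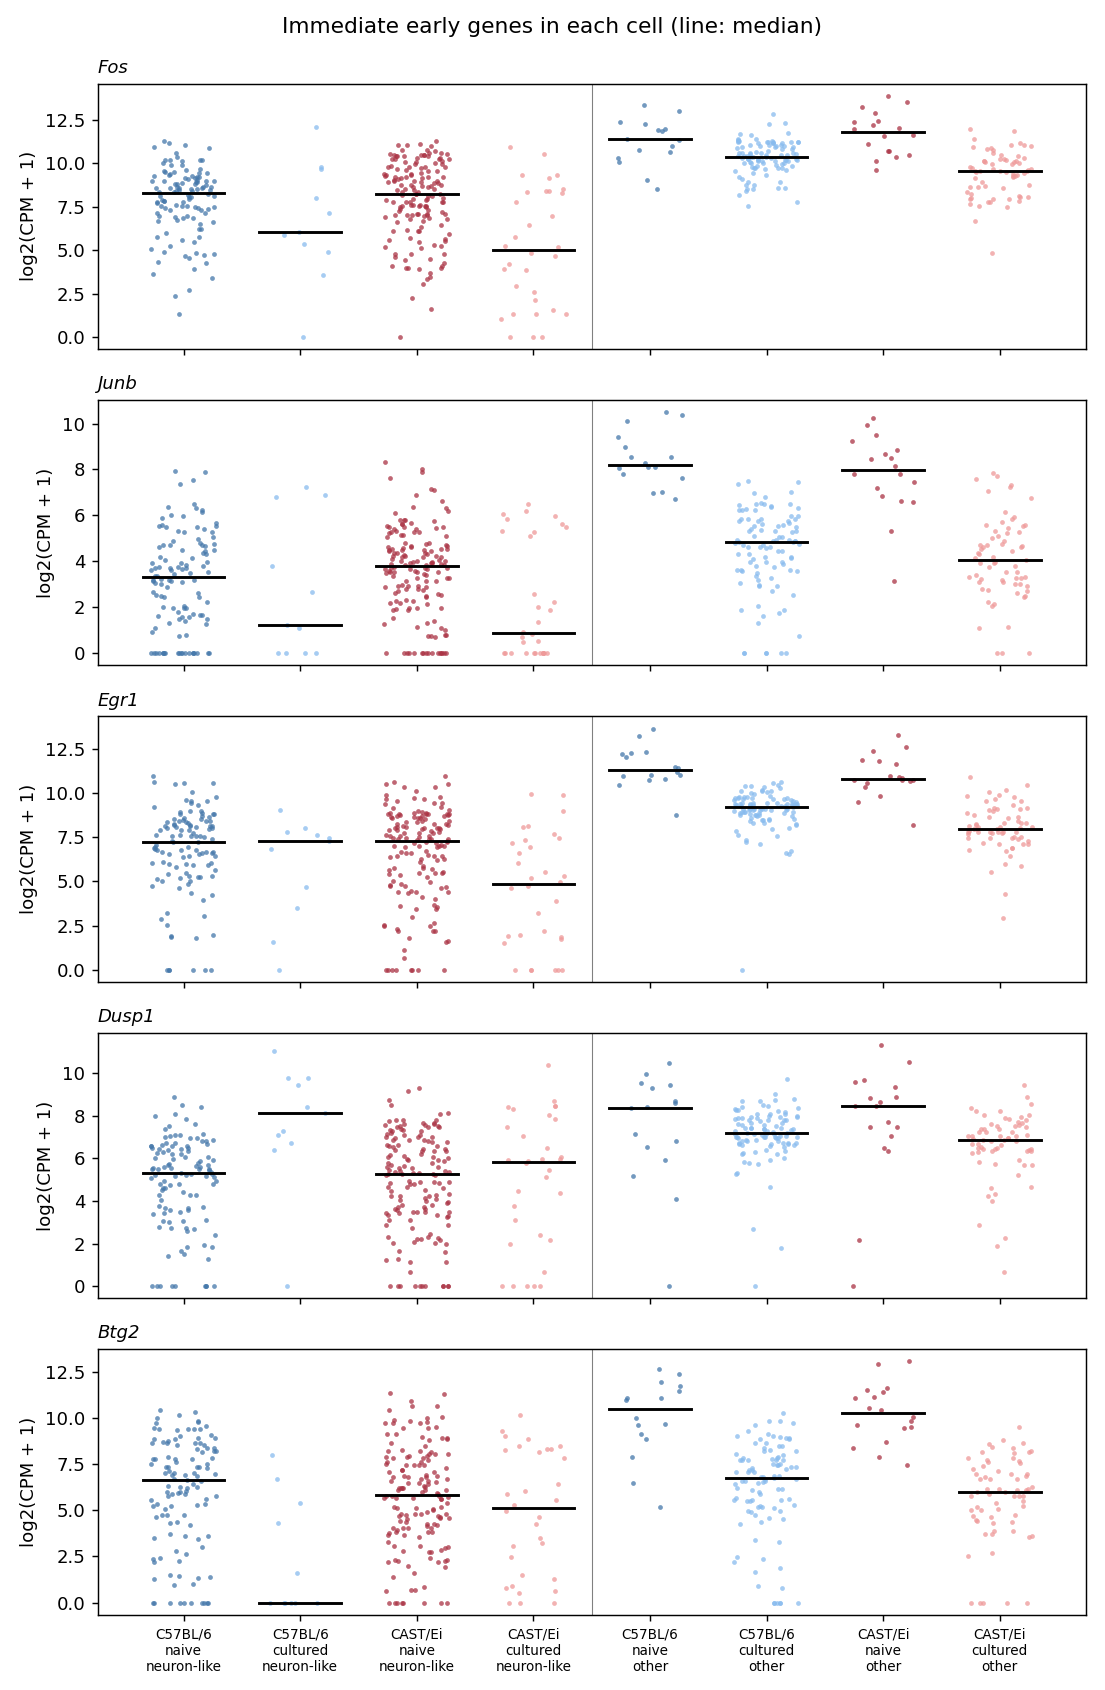
Level of each gene in every cell, as log2(CPM + 1) on the vertical axis, by strain and treatment for neuron-like cells (left of the line) and other cells (right). Points are cells and bars are medians; naive neuron-like cells spread from near 0 to over 10 for Fos, Egr1 and Btg2, and naive other cells sit above most of them.

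Summed over cells, with exact 95% Poisson intervals that cover counting error only, naive C57BL/6 neuron-like cells held Fos at 437 CPM (433 to 442), Egr1 at 277 (273 to 280.1), Btg2 at 237 (234 to 240.1), Dusp1 at 63.9 (62.3 to 65.5) and Junb at 27.1 (26.01 to 28.1). Scaled to the exon length of the coding transcripts, the order in C57BL/6 was Fos at 207 CPM per kilobase, Btg2 at 86.4, Egr1 at 61.7, Dusp1 at 26.9 and Junb at 14.95. CAST/Ei gave the same order, at 233, 73.7, 57.7, 30.8 and 12.3 CPM per kilobase. Neighbours in this order lay within the spread of single cells.

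The naive cells outside the neuron-like class held far more of all 5 transcripts. In C57BL/6 Fos summed to 3346 CPM in the 16 other cells against 437 CPM in the neuron-like cells, a log2 ratio of 2.93, and its lowest, median and highest other cells were at 365, 2678 and 10335 CPM. Egr1 stood at 3452 against 277 CPM (log2 ratio 3.64) and Junb at 464 against 27.1 CPM (4.05). All 16 other cells lay above the neuron-like median for these 3 transcription factor genes, although the ranges of single cells overlapped. Dusp1 stood at 392 against 63.9 CPM (2.60), with 13 of 16 cells above that median, and Btg2 at 1822 against 237 CPM (2.94), with 14 of 16. All 5 genes were thus at least 2-fold higher, where 24.3% of the 11251 genes were and 32.9% were lower. CAST/Ei gave the same picture: log2 ratios were 3.13 for Fos (4292 against 491 CPM), 3.48 for Egr1, 3.70 for Junb, 2.98 for Dusp1 (583 CPM, and 384 CPM without its top cell) and 3.44 for Btg2, where 23.6% of all genes were higher by as much and 31.3% lower. Of the markers of other cell types, 11 of 16 glial, 10 of 10 fibroblast and 11 of 12 endothelial and mural genes were at least 2-fold higher in these C57BL/6 cells too, and 14, 8 and 11 in CAST/Ei. Their part in the difference was not tested. Each of the 10 ratios stayed at least 2-fold under all 11 alternative settings.

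Among neuron-like cells the 5 genes were highest in cluster 3. Its 50 naive cells (23 C57BL/6 and 27 CAST/Ei) were led by Tac1, the precursor of substance P, Gfra3, a receptor for artemin, and Trpv1, the capsaicin receptor. The same 50 cells clustered together when the immediate early list was left out, so the genes did not define the cluster; the comparison was nevertheless made after its levels had been seen. In C57BL/6, Fos in cluster 3 ran from 98.2 over a median of 583 to 2519 CPM, against 1.52, 227 and 1970 CPM in the 93 other naive neuron-like cells. The ranges overlapped, and 20 of the 23 cells lay above the median of the rest. Log2 ratios in C57BL/6 were 1.27 for Fos, 1.87 for Junb, 1.49 for Egr1, 1.91 for Dusp1 and 2.00 for Btg2, all at least 2-fold higher, where 13.2% of all genes were and 10.8% were lower. In CAST/Ei they were 1.38, 1.69, 1.15, 1.29 and 2.68 in the same order, where 11.6% of all genes were 2-fold or more higher and 8.89% lower. Btg2 in CAST/Ei stood furthest apart, at 649 CPM in cluster 3 against 100.3 CPM in the rest, and 26 of 27 cells lay above the median of the rest.

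Every gene of the 5 had its highest summed level of all naive neuron-like clusters in cluster 3, in both strains. For Fos that level was 801 CPM in C57BL/6, against 225 to 374 CPM in the other 5 clusters, and 985 CPM in CAST/Ei, against 361 to 386 CPM in the other 4. Cluster 4 (26 naive C57BL/6 cells) was led by Mrgprd, a receptor of nonpeptidergic nociceptors. It had the lowest sums in C57BL/6 for Fos (225 CPM) and Junb (8.49 CPM). Without the top cell of each cluster the Fos order changed, with cluster 6 at 171.1 CPM and cluster 4 at 187.3 CPM. For Junb cluster 4 then stayed lowest, at 7.52 CPM against 7.63 CPM in cluster 1. By median cluster 1 held less Junb, at 4.41 against 6.11 CPM. Cluster 13 was the Mrgprd counterpart of cluster 4 in CAST/Ei. Its sums were the lowest there for Fos (361 CPM), Junb (11.3 CPM), Egr1 (183 CPM) and Btg2 (75.6 CPM). For Egr1 cluster 14 stood close, at 184.8 CPM, and its median was lower than that of cluster 13. Without the top cell of each cluster, Fos was lower in cluster 6 (287.3 CPM) than in cluster 13 (320.6 CPM). By median, Fos was also lower in clusters 6 (147.7 CPM) and 14 (194.7 CPM) than in cluster 13 (292.2 CPM). Junb and Btg2 stayed lowest in cluster 13 both ways. Clusters 1, 2, 4 and 7 hold naive cells of C57BL/6 alone, and 13, 14 and 15 of CAST/Ei alone.

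Markers of other cells also differed with cluster 3. Of 16 glial markers 8 were at least 2-fold higher there in C57BL/6 and 9 in CAST/Ei, as were 7 and 6 of 10 fibroblast and 4 and 9 of 12 endothelial and mural markers. The summed glial level was 4151 CPM in C57BL/6 cluster 3 against 3461 CPM over all its neuron-like cells, and 2263 against 2695 CPM in CAST/Ei. The fibroblast sum was 1034 against 383 CPM and 1185 against 471 CPM, and the endothelial and mural sum 182.3 against 1373 CPM and 1410 against 350 CPM. Without the 25% of neuron-like cells highest in glial markers, the 5 log2 ratios were 1.12 to 2.37 in C57BL/6 and 0.93 to 2.92 in CAST/Ei, where Egr1 at 0.93 was then below 2-fold, as it was by the mean of the cells' CPM (0.92). Their part in the cluster 3 levels was not tested beyond this.

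**Figure D2:**
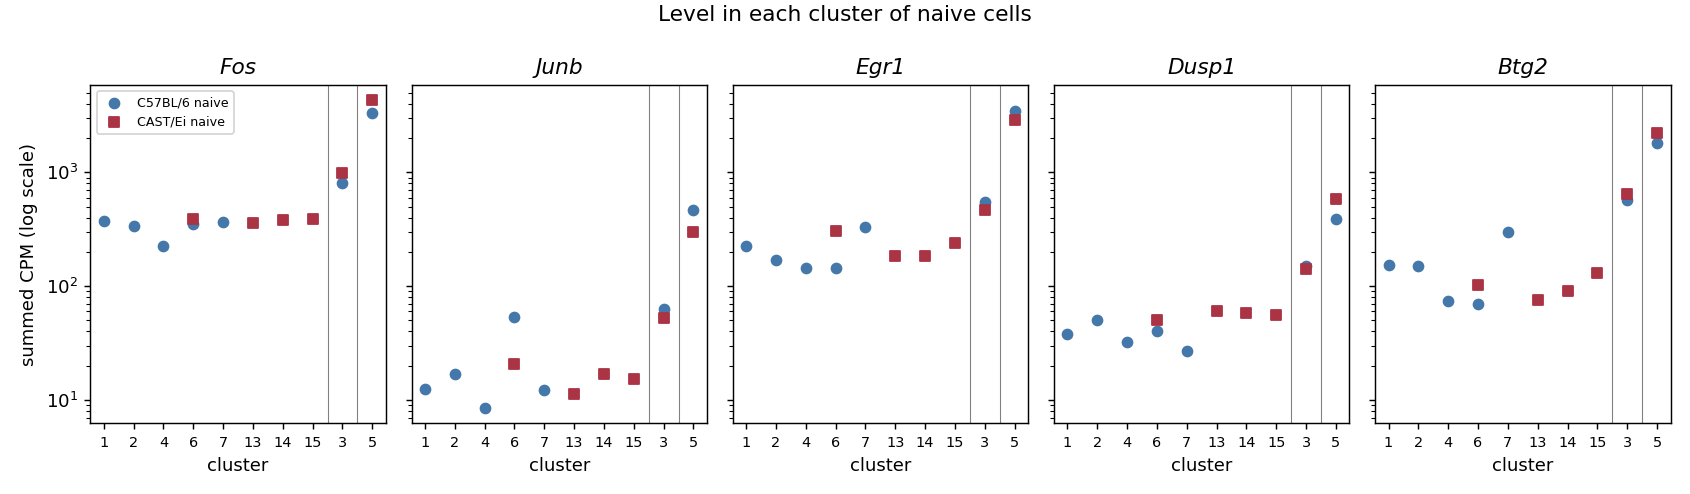
Summed level in CPM (log axis) of each gene in each cluster of naive cells, circles for C57BL/6 and squares for CAST/Ei; clusters of fewer than 3 cells of a strain are left out. Within each strain cluster 3 stands above the other neuron-like clusters for all 5 genes, and cluster 5, the naive cells outside the neuron-like class, above cluster 3.

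The 5 transcripts tended to be found in the same naive neuron-like cells. After each cell was thinned to 200000 reads and detection set at 5 reads, which left out 7 C57BL/6 and 8 CAST/Ei naive neuron-like cells, Fos was detected in 91.7% of naive C57BL/6 neuron-like cells (exact interval 84.9 to 96.2; 97.4% before thinning). Egr1 was detected in 85.3%, Btg2 in 72.5%, Dusp1 in 60.6% and Junb in 29.4%. CAST/Ei gave 91.2%, 81.1%, 68.2%, 58.1% and 31.1%. All 5 were found together in 19.3% of naive C57BL/6 and 22.3% of naive CAST/Ei neuron-like cells, in 12 of 15 naive other cells (80%) of each strain, and in 15 of 22 C57BL/6 and 14 of 26 CAST/Ei cells of cluster 3. In C57BL/6 other cells Fos, Junb, Egr1 and Btg2 were each in 15 of 15 and Dusp1 in 12, so no other count was possible. In CAST/Ei other cells Junb was in 14 and Dusp1 in 13 of 15. Junb alone was in 15 of 22 and 16 of 26 cells of cluster 3. The counts in these 2 sets thus follow largely from the single genes. In cultured neuron-like cells all 5 were found together in 0 of 8 C57BL/6 and 0 of 27 CAST/Ei cells. Among these cells Junb was detected in only 1 of 8 and 9 of 27, and Btg2 in 2 of 8 and 13 of 27. Few cells could thus have held all 5, whether or not the genes go together. The numbers of cultured cells are small, and 3 and 5 cells had been left out as too shallow.

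**Figure D3:**
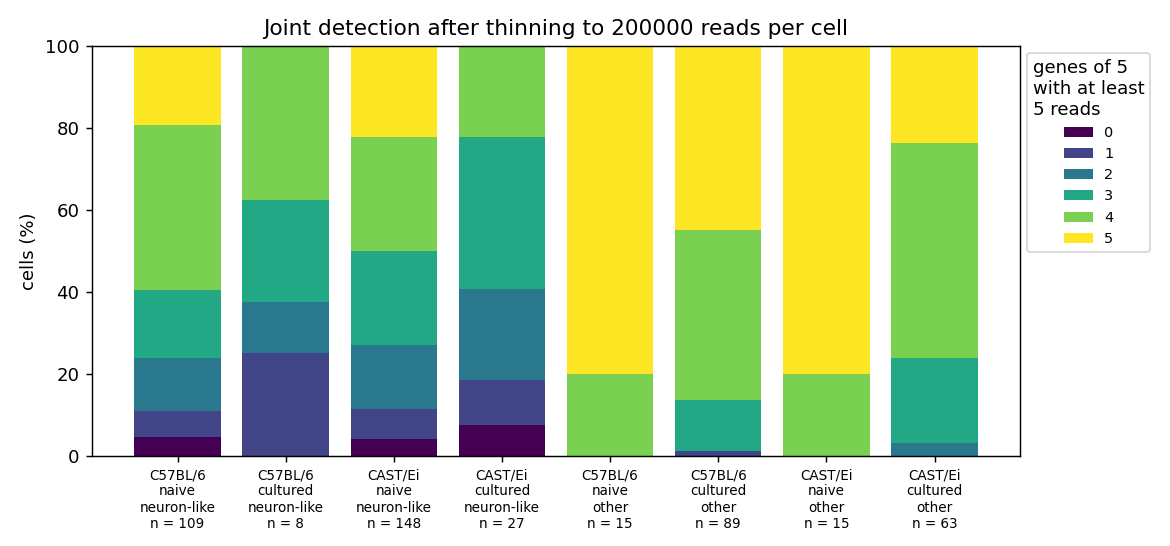
Share of cells (vertical axis, %) with 0 to 5 of the genes at 5 or more reads after thinning to 200000 reads, by strain, treatment and class; n is the number of cells deep enough. All 5 are found together in 80% of naive other cells, where Dusp1 was detected in 12 of 15 C57BL/6 and 13 of 15 CAST/Ei cells. They are found together in no cultured neuron-like cell, where Junb was detected in 1 of 8 C57BL/6 and 9 of 27 CAST/Ei cells. Shares of single genes thus limit both values.

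Across naive neuron-like cells the 5 genes were correlated. Spearman's rho between pairs ran from 0.37 to 0.71 with a median of 0.53 over the 10 pairs in C57BL/6, and from 0.46 to 0.78 with a median of 0.57 in CAST/Ei. Fos and Egr1 were closest in both strains, at 0.71 and 0.78. These are descriptions over cells that share a group, a preparation and a count table (all 272 naive neuron-like cells). The rank correlation of each gene with reads per cell lay between -0.11 and 0.13, and with the mean of the glial markers between 0.14 and 0.53. Without cluster 3 the median rho was 0.38 in C57BL/6 and 0.49 in CAST/Ei, and within cluster 3 it was 0.60 and 0.61. Within cluster 14, the largest naive CAST/Ei cluster, it was 0.53 over 55 cells. Within the other naive neuron-like clusters of at least 10 cells it ran from 0.33 (cluster 1, C57BL/6) to 0.62 (cluster 6, CAST/Ei). Clusters 13 and 15 were both at 0.41 and cluster 4 at 0.43. In cultured neuron-like cells the median was -0.17 in C57BL/6 (11 cells) and 0.00 in CAST/Ei (32 cells), where Fos and Egr1 still gave 0.51.

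**Figure D4:**
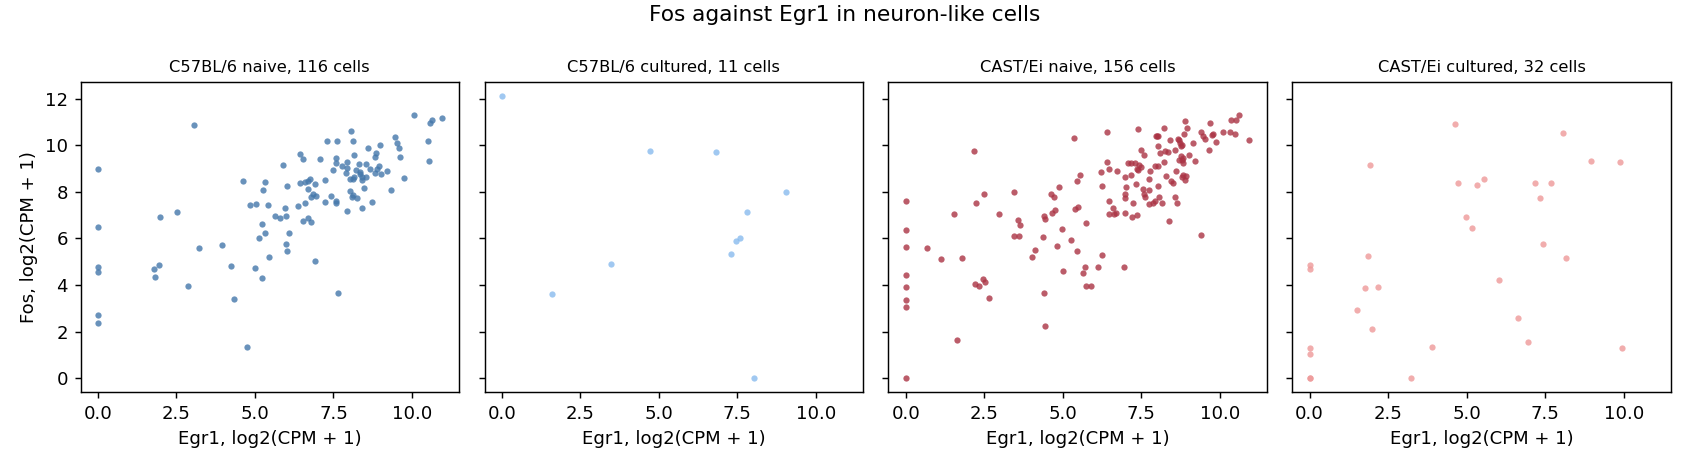
Fos (vertical) against Egr1 (horizontal), both as log2(CPM + 1), in each neuron-like cell of the 4 groups. Naive cells of both strains lie along a rising band (rho 0.71 and 0.78), and the cultured cells scatter more widely.

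The wider immediate early list, 65 genes of which 57 are in the table, was high in the same naive cells as the 5 members. In naive other cells 55 of the 57 were at least 2-fold higher than in neuron-like cells of C57BL/6 and 50 in CAST/Ei, with median log2 ratios of 3.02 and 2.96 against -0.24 and -0.19 over all genes. The 2 that were not in C57BL/6, named after their values were seen, were Dusp5, a nuclear ERK phosphatase, at -0.30 and Homer1, a synaptic scaffold, at 0.50. In cluster 3 the list had 32 genes at least 2-fold higher than in the rest in C57BL/6 and 37 in CAST/Ei, with medians of 1.28 and 1.19 against 0.02 and 0.03 over all genes. The AP-1 partner Jun, also picked out after its values were seen, was at 144.8 CPM in naive C57BL/6 neuron-like cells and 1100.2 CPM in other cells. Heat shock genes, which answer to heat and protein damage, were less uniform. In the other cells 10 of 20 in C57BL/6 and 5 of 20 in CAST/Ei were at least 2-fold higher, where 24.3% and 23.6% of all genes were. Their median log2 ratios there were 1.05 against -0.24 over all genes in C57BL/6 and 0.15 against -0.19 in CAST/Ei. In cluster 3, 1 and 5 of 20 were at least 2-fold higher, where 13.2% and 11.6% of all genes were. The MAP kinase, SRF and CREB factors that act upstream of the members had 13 of 32 higher and 8 lower in C57BL/6 other cells, and 10 and 10 in CAST/Ei, the latter near the 23.6% and 31.3% of all genes.

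**Figure D5:**
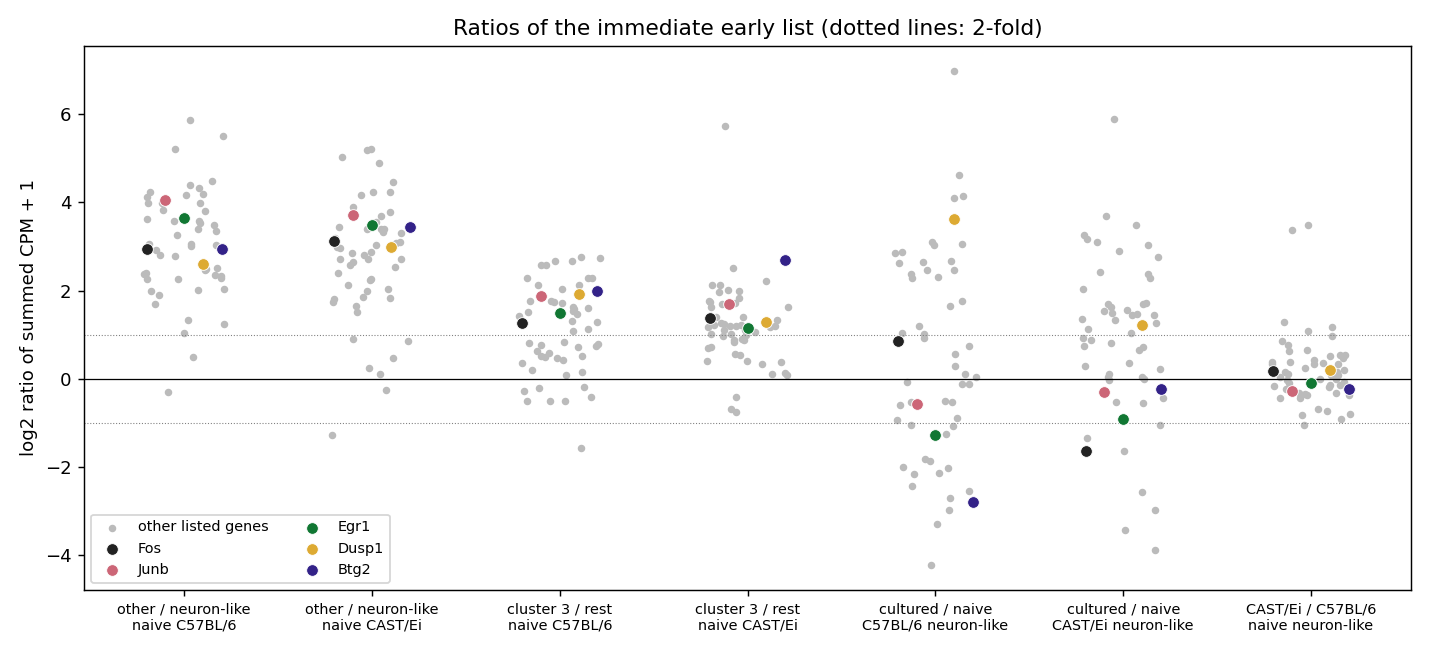
Log2 ratio of summed CPM + 1 for the 57 measured genes of the immediate early list in 7 comparisons; colours mark the 5 members and dotted lines 2-fold. In the 4 naive comparisons of cell sets all members lie above the upper line, in the culture comparisons they lie on both sides of 0, and between naive strains all lie within 0.27 of 0.

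After culture the members differed from one another in direction by sum. Nearly all cultured neuron-like cells (10 of 11 in C57BL/6 and 31 of 32 in CAST/Ei) belong to cluster 11, which holds no naive cell. Beside the members, markers of sensory neuron subtypes summed to 2037 CPM after culture against 10037 CPM before it in C57BL/6 and to 1653 against 10869 CPM in CAST/Ei, with 18 of 21 at least 2-fold lower in each strain. Fibroblast markers summed to 952.5 against 383 CPM and 1217 against 471 CPM, with 6 of 10 at least 2-fold higher in each. Glial markers summed to 2526 against 3461 CPM and 2708 against 2695 CPM. Of the 16 glial markers 5 were at least 2-fold higher and 3 lower in C57BL/6, and 8 higher and 2 lower in CAST/Ei. Endothelial and mural markers summed to 21.7 against 1373 CPM and 59.2 against 350 CPM. Of those 12, 8 and 9 were at least 2-fold lower and 1 in each strain was higher. The part of these in the members' ratios was not tested. The C57BL/6 comparison rests on 11 cultured cells, in which the median log2 ratio of all genes was -0.96, with 20.3% of genes 2-fold or more higher and 49.3% lower. Every C57BL/6 value below is to be read against that shift: under median-of-ratios scaling, which centres it, the ratios were 1.75 for Fos, 0.28 for Junb, -0.38 for Egr1, 4.52 for Dusp1 and -1.90 for Btg2, so Junb changed sign. In CAST/Ei, with 32 cultured cells, the median of all genes was -0.11, and 25% of genes were 2-fold or more higher and 32.6% lower. Cultured neuron-like cells also held fewer detected genes, a median of 4966 in C57BL/6 and 4766 in CAST/Ei against 8481 and 8573 in naive ones; the part of this in the ratios was not tested. In bulk sums such as these, fewer positive cells and less RNA per cell look alike, which is why the cells are given beside each sum.

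Dusp1 was higher after culture in neuron-like cells of both strains. In C57BL/6 its lowest, median and highest cells were at 0, 39.25 and 477 CPM before culture and at 0, 283 and 2114 CPM after it, and 10 of 11 cultured cells lay above the naive median. The sum was 802 against 63.9 CPM, a log2 ratio of 3.63, and all 12 alternatives kept it at least 2-fold higher. A single cell held 51.1% of the cultured reads, and without it the sum was 487 CPM. In CAST/Ei the cultured cells ran from 0 over 56.2 to 1332 CPM, with a sum of 171.2 against 73.1 CPM and a log2 ratio of 1.22. A single cell held 38.5% of those reads. The ratio was 0.68 without the top cell of each group and 0.12 as a mean of log values, and 18 of 32 cells lay above the naive median.

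Btg2 was lower after culture in C57BL/6, and its sum in CAST/Ei differed little. In the 11 cultured C57BL/6 cells it ran from 0 to 255 CPM with a median of 0, and 6 had no read. The sum was 33.5 against 237 CPM, a log2 ratio of -2.79, which all 12 alternatives kept at least 2-fold lower. A single cell held 77.7% of the cultured reads, and without it the sum was 8.31 CPM. In CAST/Ei it ran from 0 over 33.7 to 1122 CPM, against a naive median of 56.01 CPM, with a sum of 172.3 against 202 CPM and a log2 ratio of -0.23. Over the 12 alternatives that ratio ran from -1.46 to 0.45, and 2 of them put it at least 2-fold lower.

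Fos, the AP-1 subunit, went in opposite directions by sum. In CAST/Ei cultured cells it ran from 0 over 31.3 to 1957 CPM, and the sum was 157.6 against 491 CPM, a log2 ratio of -1.63 that kept its sign in all 12 alternatives. In C57BL/6 it ran from 0 over 64.3 to 4390.7 CPM, with a sum of 790.1 against 437 CPM and a log2 ratio of 0.85. That sum rests on 1 cell with 73.2% of the reads. Without the top cell of each group the ratio was -0.78, as a mean of log values it was -1.24, and only 3 of 11 cells lay above the naive median.

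Egr1 was lower by sum in both strains, at 113.97 against 277 CPM in C57BL/6 (log2 ratio -1.27, against a shift of -0.96 over all genes) and 137.3 against 259 CPM in CAST/Ei (-0.91). Its cultured cells ran from 0 over 156.8 to 529 CPM in C57BL/6, where the median was close to the naive 149.9 CPM, and from 0 over 27.9 to 993 CPM in CAST/Ei. Junb stayed low, at 17.8 against 27.1 CPM in C57BL/6 (-0.58) and 18.02 against 22.3 CPM in CAST/Ei (-0.29), and 4 of 11 and 12 of 32 cultured cells had no read of it. In C57BL/6 a single cell held 69.5% of its cultured reads, without which the sum was 6.11 CPM, and the ratio ran from -1.75 to 0.65 over the alternatives. By the 2-fold mark, then, 1 member was higher and 2 lower in C57BL/6, and 1 higher and 1 lower in CAST/Ei, which is near the share of all genes.

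A further set of cultured cells bears on this. Cluster 8 (24 C57BL/6 and 33 CAST/Ei cultured cells) had the neuron list highest but stayed unnamed, because its leading genes held the fibroblast marker Postn and the glial marker Cdh19 and no neuron marker. Its neuron markers summed to 11859 CPM in C57BL/6 and 13692 in CAST/Ei and its fibroblast markers to 2683 and 3566, so its makeup differs from the naive neuron-like cells it is set against here. Dusp1 in cluster 8 ran from 91.2 over 161.5 to 433 CPM in C57BL/6 and from 36.3 over 152.2 to 703 CPM in CAST/Ei. All 24 and 32 of 33 of these cells lay above the naive neuron-like median, and the log2 ratios were 1.47 and 1.30. Btg2 was lower, at 93.9 CPM in C57BL/6 (-1.33) and 73.8 CPM in CAST/Ei (-1.44). Fos stood at 973 CPM (1.15) and 767 CPM (0.64), Egr1 stood at 460.0 CPM (0.73) and 287 CPM (0.15), and Junb at 18.4 CPM (-0.53) and 15.1 CPM (-0.53). At least 2-fold higher were 2 members in C57BL/6, where 18.9% of all genes were, and 1 in CAST/Ei, where 17.4% were, and Btg2 alone was at least 2-fold lower in each, where 20.8% and 19.1% of genes were. Higher Dusp1 with lower Btg2, past 2-fold each, was thus found in both strains in cluster 8.

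Outside the neuron-like class the members were lower after culture. Cultured other cells, which take in cluster 8, the fibroblast-like cluster 9 and the unnamed clusters 10 and 12 and so differ in makeup from naive cluster 5, held Fos at 1528 against 3346 CPM in C57BL/6 and 913 against 4292 CPM in CAST/Ei, log2 ratios of -1.13 and -2.23. Junb was at -3.55 and -2.89, Egr1 at -2.37 and -2.89, Dusp1 at -0.95 and -2.16 and Btg2 at -2.94 and -4.24. In C57BL/6 4 of 5 and in CAST/Ei 5 of 5 members were at least 2-fold lower, where 19.3% and 19.4% of all genes were lower and 30.1% and 30.2% higher. No cultured other cell reached the naive median of Junb or Btg2 in either strain. Within culture, the log2 ratio of other over neuron-like cells was 1.03 in C57BL/6 and 0.24 in CAST/Ei at the median of all genes. Beside that, Egr1 stood at 2.54 and 1.51, Fos at 0.95 and 2.53 and Junb at 1.08 and 1.10. By sum, Junb and Fos in C57BL/6 thus lay close to the median. The Fos sum of the C57BL/6 neuron-like cells rests on 1 cell with 73.2% of the reads. All 100 other cells lay above the neuron-like Fos median, and that ratio ran from -0.10 to 3.74 over 11 alternatives. By sum Btg2 lay in opposite directions, at 2.79 and -0.57, and Dusp1 stood at -1.98 and -0.40. In CAST/Ei, however, 44 of 67 other cells lay above the neuron-like median of Btg2 and 54 of 67 above that of Dusp1. Over 11 alternatives the CAST/Ei ratios ran from -0.87 to 0.81 for Btg2 and from -0.80 to 1.61 for Dusp1. At least 2-fold higher were 3 members in each strain, where 50.7% and 32% of all genes were, and 1 in C57BL/6 was at least 2-fold lower, where 19.8% were, against none in CAST/Ei, where 19.6% were. Fos in cultured C57BL/6 was highest in cluster 10 (31 cells led by Sfrp1 and cell division genes such as Top2a and Cdk1), at 2248 CPM, leaving out cluster 12, which holds 3 cells there at 2780 CPM.

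The members' own families also held genes on both sides after culture, to be read against the 20.3% of all genes that were higher and 49.3% lower in C57BL/6 and the 25% and 32.6% in CAST/Ei. Of the 57 immediate early genes 23 were higher by 2-fold or more and 17 lower in cultured C57BL/6 neuron-like cells, and 29 higher and 8 lower in CAST/Ei. The highest were Cited2 (log2 ratio 6.98), a coactivator that binds CBP, Phlda1 (4.61) and the growth arrest gene Gadd45a (4.15) in C57BL/6, and Pmaip1 (5.89), a proapoptotic BH3 protein, Gadd45a (3.69) and Ier5 (3.48) in CAST/Ei. The lowest were Rgs2 (-4.22), a regulator of G protein signalling, Socs3 (-3.28) and Zfp36 (-2.98) in C57BL/6, and Rgs2 (-3.88), Fosb (-3.43) and Ptgs2 (-2.98) in CAST/Ei. Jun and Atf3, AP-1 and ATF factors known from injured sensory neurons and picked out here after their values were seen, stood at 1071 against 144.8 CPM and 1177 against 191 CPM in C57BL/6, and at 498 against 161.3 CPM and 272 against 163.97 CPM in CAST/Ei.

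Of the 15 measured MAP kinase phosphatase and Sprouty genes, Dusp1's relatives in switching the pathway off, 5 were higher and 5 lower in C57BL/6 and 9 higher and 1 lower in CAST/Ei. Dusp14 was the highest in both strains (5.56 and 3.36), ahead of Dusp10 (3.94) and Dusp1 itself in C57BL/6 and of Dusp7 (1.92) and Dusp8 (1.51) in CAST/Ei. Spry4 (-3.45), Dusp3 (-1.75) and Spred2 (-1.22) were the lowest in C57BL/6, and Dusp26 (-3.14) and Dusp3 (-0.96) in CAST/Ei. In Btg2's family with the CCR4-NOT complex, 6 of 15 were higher and 4 lower in C57BL/6 and 7 higher and 1 lower in CAST/Ei. Btg2 was the lowest of them in C57BL/6, while its relative Tob1 was at 2.67 there and at -1.06 in CAST/Ei. The deadenylase gene Cnot6 was higher in both strains (2.83 and 2.46). Of the 32 kinases and factors upstream 13 were higher in each strain, led by Elk3 (5.77) in C57BL/6 and Mkl1 (2.93), a coactivator of the serum response factor, in CAST/Ei, and 8 and 3 were lower, with Rps6ka5 lowest in CAST/Ei (-2.42) and without a read in the C57BL/6 cells. Heat shock genes had 4 higher and 10 lower of 20 in C57BL/6 and 2 higher and 8 lower in CAST/Ei, which in C57BL/6 is near the share over all genes. The inducible chaperone genes Hspa1a (-3.22 and -4.66) and Hspa1b (-4.27 and -3.76), near-identical copies whose reads the counting could divide between them, were lower in both, and the small heat shock gene Cryab (1.63 and 3.23) was higher in both.

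Between naive strains the members hardly differed. The log2 ratio of CAST/Ei over C57BL/6 in naive neuron-like cells was 0.17 for Fos, -0.27 for Junb, -0.10 for Egr1, 0.19 for Dusp1 and -0.23 for Btg2. None of the 5 was 2-fold apart, where 7.23% of all genes were higher in CAST/Ei by that measure and 6.2% lower, and all 12 alternatives kept them under 2-fold. In naive other cells the 5 ratios ran from -0.62 (Junb) to 0.57 (Dusp1), again none 2-fold apart, where 25.8% and 23.1% of all genes were. In cultured neuron-like cells Fos (-2.32) and Dusp1 (-2.22) were lower in CAST/Ei and Btg2 (2.33) was higher, where 19.6% and 41.3% of all genes were at least 2-fold lower and higher, and Junb stood at 0.02 and Egr1 at 0.27. Without the top cell of each group the Fos ratio was -0.90, under 2-fold, since 1 C57BL/6 cell holds most of its reads. Over the 12 alternatives Dusp1 ran from -2.87 to -0.78, Btg2 from -0.70 to 4.55, Junb from -0.99 to 1.49 and Egr1 from -1.34 to 0.34. In cluster 8 the 5 ratios ran from -0.68 (Egr1) to 0.02 (Dusp1), and none was 2-fold apart, where 10.5% of all genes were higher and 8.39% lower. Strain, animal and capture cannot be told apart in these comparisons.

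The genes most like each member across neuron-like cells were taken by mean rho over the 4 groups, among 6944 genes read in at least 25% of the cells of each. For Fos they were Nfkbia (0.50), Gadd45g (0.48), Mt1 (0.48), Egr1 (0.46) and Jun (0.46). For Egr1 they were Ppp1r15a (0.51), Ripk1 (0.50), Gadd45g (0.46), Fos (0.46) and Tpm3 (0.46), and for Junb they were Jmjd1c (0.42), Egr1 (0.42), Tpm3 (0.42), Ric8 (0.40) and Rhob (0.39). Dusp1 was most like Adcyap1 (0.44), the gene of the neuropeptide PACAP, then Phlda1 (0.39), Bach1 (0.35), Ets2 (0.34) and Dnajb1 (0.34). Btg2 was most like Fosb (0.57), Atf3 (0.47), Timp3 (0.43), Slc39a1 (0.43) and Vim (0.43). These means give each group the same weight, so the 11 cultured C57BL/6 cells count as much as each larger group. In those 11 cells Junb with Ric8 gave 0.85, against 0.12 in naive CAST/Ei cells. Fos with Egr1 gave -0.17 in them, against 0.71 and 0.78 in naive C57BL/6 and CAST/Ei cells. With the 2 naive groups alone, over 10250 genes, 3 of the 5 names stayed for Fos, 1 each for Junb, Egr1 and Btg2 and 0 for Dusp1, and Jun was then among the 5 nearest of every member, at a mean rho of 0.77 for Fos and 0.50 for Dusp1.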

How the data were processed

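Single cells were sequenced after capture on a microfluidic chip, and the authors deposited read counts per gene and cell as whole numbers without molecular identifiers. Per the submitters' processing notes, Bowtie2, SAMtools and build mm10 were used. How reads were assigned to genes is not given in the sources used here. Reads of CAST/Ei were counted on the C57BL/6-based reference as deposited, which can lower counts where the strains differ in sequence. The groups are 132 naive and 111 cultured cells of C57BL/6, and 174 naive and 99 cultured of CAST/Ei; 116, 11, 156 and 32 of them, in that order, were neuron-like. Depth was 13932 to 2978345 reads per cell, every cell was kept, and no doublet caller was run.

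Counts were scaled to CPM and log2(CPM + 1) was used for clustering with scanpy 1.11.5 and igraph 0.11.9 (2000 variable genes, 20 principal components, 15 neighbours, Leiden resolution 1), under Python 3.11.15. Each cluster took the class of its highest marker list unless its 10 leading genes held more markers of another class. Levels are summed reads as CPM with exact Poisson 95% intervals; differences are log2 ratios of summed CPM + 1, and a gene was counted as higher or lower at 2-fold. Shares used cells thinned to 200000 reads, detection at 5 reads and exact Clopper-Pearson 95% intervals. Intervals cover counting error only. Genes named in culture are the 3 furthest from 0 in each direction of each list, among genes of at least 10 CPM in 1 of the groups compared, and likeness is mean Spearman's rho; genes named outside these rules are said to be so. The ratio code was checked on simulated data. Promoter windows came from RefSeq. Alternatives were scaling, pseudocount, mean over cells, the top cell left out, other classings, a filter at 10 CPM and detection limits. The members and lists were chosen with earlier results of these data known.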

Additional observations from a re-analysis of the deposited data

Results flagged for a closer look

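The summed Fos level of neuron-like cells lay in opposite directions after culture in the strains, with a log2 ratio of cultured over naive of 0.85 in C57BL/6 and -1.63 in CAST/Ei. The difference between strains was not tested, since each group is 1 sample. The C57BL/6 value rests on 1 of 11 cells and was -0.78 without the top cell of each group.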

How the results depend on the processing

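No paired analysis was possible because the numbers in the titles only name cells and each group is 1 sample with no test. Counts below are genes at least 2-fold apart, of the 5 members or of the 57 immediate early genes; the cause of each shift was not tested. For culture in C57BL/6, members higher went from 1 to 2 under median-of-ratios scaling, Ward clusters, without glia-high cells and with cluster 8 as neuron-like, and members lower from 2 to 1 under median-of-ratios scaling, the mean of the cells' CPM, class by own markers and cluster 8. Listed genes higher (23) became 14 by mean log2 and without the top cell and 15 over all cells; listed genes lower (17) became 11 with a pseudocount of 10 and over all cells, 10 by mean CPM, 27 without the top cell, 7 by own markers and 6 with cluster 8, which also took Egr1 from -1.27 to 0.26. For culture in CAST/Ei, members higher went from 1 to 0 by mean CPM, mean log2, without the top cell, by own markers and over all cells. Members lower (1) became 3 by mean log2 and own markers, 2 without the top cell, with Ward clusters and with clusters made without the list, and 0 with cluster 8. Listed genes higher (29) became 13 by mean log2 and 12 over all cells; lower (8) became 15 by mean log2, 14 without the top cell, 13 by own markers and 4 with cluster 8.

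Between naive strains, listed genes higher (5) became 2 with a pseudocount of 10, 9 by own markers, and 3 without glia-high cells and over all cells; lower (1) became 0, 3 and 7 with the pseudocount, without glia-high cells and over all cells. Between cultured strains, members higher (1) became 2 without the top cell and without glia-high cells and 0 over all cells and with cluster 8, members lower (2) became 1 without the top cell, and Btg2 went from 2.33 to -0.70 over all cells. For other against neuron-like cells, listed genes lower in naive CAST/Ei (1) became 0 with the pseudocount, mean log2, Ward clusters and a filter at 10 CPM and 2 by own markers, and those in naive C57BL/6 (0) became 1 without the top cell. In cultured C57BL/6, members lower (1) became 0 by mean log2 and with cluster 8, and listed genes lower (14) became 6 by mean log2 and 9 without the top cell and with cluster 8. In cultured CAST/Ei, listed genes higher (14) became 9 with the pseudocount and 32 by mean log2, and lower (15) became 2 by mean log2. In cluster 3 of CAST/Ei, listed genes higher (37) became 23 with the pseudocount. Cluster 8 as neuron-like, likeness in naive groups only and the cluster 3 alternatives were chosen after seeing the data. Most log2 ratios of single genes left their counting interval under an alternative: 338 did, 190 did not and 2 changed sign from past 2-fold. Of the counts 325 stayed within 1.5 times and 61 did not, of the shares 67 stayed in their interval and 53 did not, and of the likeness lists 1 kept 4 of its 5 names and 9 kept fewer. Depth limits Junb, of which many cells hold few reads.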
